A study of Caenorhabditis elegans with 2 samples.

Results

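GRH-1 peaks at genes of 3 classes of small structured RNA are described here: transfer RNA (tRNA), small nucleolar RNA (snoRNA) and small nuclear RNA (snRNA). A peak belonged to the set when its summit lay inside, or within 500 bp of, a gene with 1 of these biotypes in Ensembl release 115, on chromosomes I to V and X. Of the 2470 peaks in the thresholded list of the pooled replicates, 200 met this rule. The nearest such gene was a tRNA gene for 86 of them, a snoRNA gene for 81 and an snRNA gene for 33. They lay in 189 separate regions, since 22 of them overlapped another peak of the list, and 26 had more than 1 gene of these classes in reach. The stretches of genome that the rule covers made up 1.08% of the 6 chromosomes and held 8.10% of the peaks.

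The study mapped where GRH-1, the Grainyhead transcription factor of Caenorhabditis elegans, sits on chromatin, by chromatin immunoprecipitation and sequencing (ChIP-seq). Whole larvae of the first stage (L1), starved after bleaching and 6 hours of age, carried the allele st12208[grh-1::TY1::EGFP::3xFLAG] I, an insertion made by CRISPR that fuses GRH-1 to a TY1, EGFP and 3xFLAG tag. The precipitation used an antibody against GFP, although the antibody field of the labels names grh-1, and chromatin was sheared by sonication. There were 2 biological replicates of 1 group and no second genotype, treatment or stage, and the control experiment that the labels point to was not analysed here. Whole animals were used, so no value can be assigned to a cell type. The number of reads is unknown, and intervals given below cover counting error over peaks or genes only. Neighbouring peaks and near-identical gene copies are not independent.

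These genes are not all transcribed in the same way. RNA polymerase III transcribes tRNA genes from promoter elements inside the gene, the A box and the B box, which the factor TFIIIC recognises. Most snRNA genes, and snoRNA genes that stand on their own, are transcribed in animals from a proximal sequence element upstream of the gene, which the snRNA activating complex binds. Many other snoRNAs are cut out of introns of host genes, often genes for ribosomal proteins. In worms the snRNA class includes the spliced leader genes sls-1 and sls-2, whose RNAs are joined to the front of messenger RNAs by trans-splicing. Grainyhead proteins are known for control of epidermal genes and for binding an AACCGGTT palindrome.

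The strongest snRNA peaks lay just upstream of their genes, and the sequences there are shown to let the letters under the summit be read. The runs below are the 90 bases before each gene's 5′ end, 5′ to 3′ on the gene's strand, from the RefSeq genome of build WBcel235. Capitals mark CGNAAC and TGTC with 8 bases between them, called the upstream element here. The pattern was read from the sequences of these peaks and is used to describe them and has 9 fixed letters. In C52E4.8 the capitals mark a match with 1 of the 9 letters different, and the runs of sls-2.1 and sls-2.2 have no capitals because they lack the pattern.
sls-2.1, chrII:5844775-5844864: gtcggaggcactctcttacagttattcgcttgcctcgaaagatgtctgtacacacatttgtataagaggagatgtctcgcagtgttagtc
sls-2.2, chrII:5543508-5543597: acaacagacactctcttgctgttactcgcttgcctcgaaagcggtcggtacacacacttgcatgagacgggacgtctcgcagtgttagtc
C52E4.8, chrV:11980028-11980117: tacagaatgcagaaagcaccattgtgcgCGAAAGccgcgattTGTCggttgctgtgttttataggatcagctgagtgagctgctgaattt
sup-6, chrII:12944968-12945057: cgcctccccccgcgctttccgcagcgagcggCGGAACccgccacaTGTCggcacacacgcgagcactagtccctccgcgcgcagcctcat
W05B2.8, chrIII:10989589-10989678: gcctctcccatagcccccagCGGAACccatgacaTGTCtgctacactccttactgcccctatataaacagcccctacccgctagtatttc
sls-2.8, chrIII:12250375-12250464: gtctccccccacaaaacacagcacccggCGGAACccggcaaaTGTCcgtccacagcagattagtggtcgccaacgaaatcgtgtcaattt
F54D8.7, chrIII:5080899-5080988: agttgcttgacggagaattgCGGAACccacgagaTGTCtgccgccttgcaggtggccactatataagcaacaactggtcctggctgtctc

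The same 90 bases are shown for strong snoRNA peaks whose summit lay in this stretch, because they carry the same pattern in front of another class of gene. The last run is that of the single annotated selenocysteine tRNA gene, K11H12.t1. It is shown for comparison, and its capitals mark CGAAAC and a GTC after 8 bases, so the spacing is 1 base shorter than in the pattern and it is not counted as a match. With the spacing of the pattern, 4 of the 9 letters differ upstream of this gene, while 55 of 612 tRNA genes have a match with at most 2 different.
Y53F4B.47, chrII:15025894-15025983: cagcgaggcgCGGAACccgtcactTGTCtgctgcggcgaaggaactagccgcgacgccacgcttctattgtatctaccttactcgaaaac
ZK994.7, chrV:8500489-8500578: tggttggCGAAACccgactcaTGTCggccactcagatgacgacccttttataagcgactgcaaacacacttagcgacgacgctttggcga
F01D5.12, chrII:14018442-14018531: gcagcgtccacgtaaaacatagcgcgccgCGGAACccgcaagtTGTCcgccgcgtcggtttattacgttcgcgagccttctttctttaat
T26A8.6, chrIV:8428740-8428829: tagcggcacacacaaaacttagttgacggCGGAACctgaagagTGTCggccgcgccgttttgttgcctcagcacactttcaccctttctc
K11H12.t1, chrIV:658091-658180: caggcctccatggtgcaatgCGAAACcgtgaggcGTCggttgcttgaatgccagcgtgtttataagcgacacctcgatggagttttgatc

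A further group of strong peaks had its summit more than 100 bp from the gene's 5′ end. Their runs are the 101 bases centred on the summit, on the plus strand of the genome. Capitals mark AGACGCAG in the run near W06H8.17 and the reverse complement of GAGAGA in the run near C28G1.t1. The others hold none of the sites searched.
Y24D9A.9, chrIV:4390606-4390706: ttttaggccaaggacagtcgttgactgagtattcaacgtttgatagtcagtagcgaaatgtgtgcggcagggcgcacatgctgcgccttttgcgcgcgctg
F54E7.10, chrIII:5679096-5679196: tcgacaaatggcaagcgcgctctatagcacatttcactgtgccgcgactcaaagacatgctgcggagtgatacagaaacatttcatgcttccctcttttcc
W06H8.17, chrV:6227700-6227800: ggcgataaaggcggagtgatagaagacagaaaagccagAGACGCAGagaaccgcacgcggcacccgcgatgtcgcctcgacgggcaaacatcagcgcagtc
C18A11.t2, chrX:8036390-8036490: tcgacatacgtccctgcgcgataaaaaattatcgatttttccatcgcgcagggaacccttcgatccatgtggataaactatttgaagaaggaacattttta
C28G1.t1, chrX:8835951-8836051: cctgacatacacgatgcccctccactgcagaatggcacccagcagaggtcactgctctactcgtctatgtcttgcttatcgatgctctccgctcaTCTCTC

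For tRNA genes the promoter lies inside the gene, so the whole gene is shown after its 90 upstream bases for 2 strong peaks, a serine tRNA gene (C53C7.t1) and a glutamate tRNA gene (M02F4.t2). Capitals mark the B box, searched as GTTCNANNC.
C53C7.t1, chrX:13046488-13046659: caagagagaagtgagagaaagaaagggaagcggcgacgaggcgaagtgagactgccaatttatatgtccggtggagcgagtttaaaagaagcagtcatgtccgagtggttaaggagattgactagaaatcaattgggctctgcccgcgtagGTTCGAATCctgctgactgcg
M02F4.t2, chrX:3035976-3036137: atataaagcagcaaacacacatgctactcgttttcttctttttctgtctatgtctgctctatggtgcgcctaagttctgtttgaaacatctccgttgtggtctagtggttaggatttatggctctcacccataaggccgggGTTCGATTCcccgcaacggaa

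The first question was how many genes of each class had a GRH-1 summit in reach. A summit lay inside or within 500 bp of 102 of 612 tRNA genes (16.7%, 95% Wilson interval 13.9% to 19.8%). The share was 23.1% for snoRNA genes (80 of 346, 19.0% to 27.8%) and 24.0% for snRNA genes (31 of 129, 17.5% to 32.1%). Among all other annotated genes it was 6.14% (2811 of 45803). These others are of several kinds: by the same rule, 10.1% of the 19973 protein-coding genes and 0.892% of the 15363 piRNA genes had a summit. Class is not the sole difference between these genes and the others, which also differ in length, and the distance is the rule's own, so no test was made. In the list of replicate 2 alone, which holds 1487 peaks, the shares were 7.03% for tRNA, 15.0% for snoRNA and 15.5% for snRNA genes, against 3.98% of the other genes. In the list of replicate 1 alone they were 11.3%, 17.9% and 20.9%, against 4.73%.

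The summits lay close to the genes. Of the 200 peaks, 43 had their summit inside the gene, 82 at 1 to 50 bp from it and 44 at 51 to 100 bp, which puts 84.5% within 100 bp. At the limit of the rule the numbers were small: 4 summits lay 451 to 500 bp from the gene, with signal values of 78.4 to 265 (median 154), and 3 peaks just outside, at 501 to 550 bp, had 83.6 to 1361 (median 596). The signal value is the authors' score for a peak, and no source used here states its scale. Measured from the 5′ end alone, a summit lay within 100 bp of 12.9% of tRNA genes (79), 16.8% of snoRNA genes (58) and 20.2% of snRNA genes (26), against 1.47% of protein-coding genes (293 of 19973). The share was 3.08% for genes annotated as ncRNA and 0.0846% for piRNA genes. An annotated 5′ end need not be the start of transcription, and how far they differ by class of gene was not tested. The contrast also depended on the distance. Within 500 bp of the 5′ end the shares were 16.3% for tRNA, 23.1% for snoRNA and 24.0% for snRNA genes, against 6.28% of protein-coding genes.

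**Figure D1:**
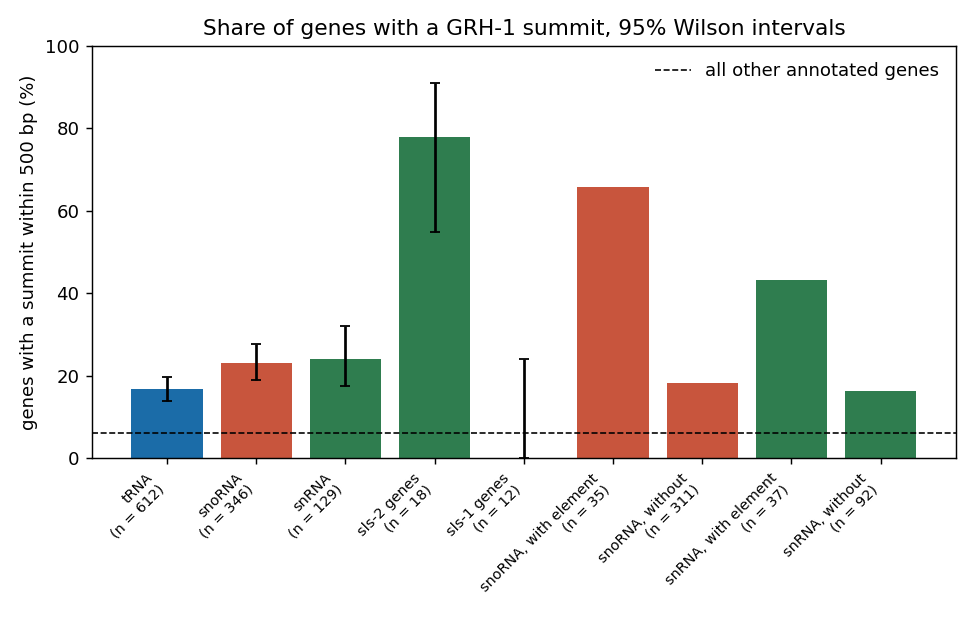
Bars give the percentage of genes with a GRH-1 summit inside or within 500 bp, lines the 95% Wilson interval for the first 5 bars, with the number of genes under each bar; the dashed line is the 6.14% of all other annotated genes. The sls-2 genes stand at 77.8%, the sls-1 genes at 0%, and the last 4 bars split snoRNA and snRNA genes by the upstream element, a pattern that was read from these peaks, so that they carry no interval.

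The position of the summit is given by class. For tRNA genes, 43 summits lay upstream, 27 inside and 16 downstream, and the median position was 1 bp before the 5′ end (−1). For snoRNA genes, 62 lay upstream, 10 inside and 9 downstream, with a median of −41 bp. For snRNA genes, 22 lay upstream, 6 inside and 5 downstream, with a median of −27 bp, and 16 of the 33 summits fell in the last 50 bp before the gene. A separate set of 16 snoRNA peaks had summits 101 to 500 bp upstream, as against 4 of the tRNA peaks and 2 of the snRNA peaks.

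**Figure D2:**
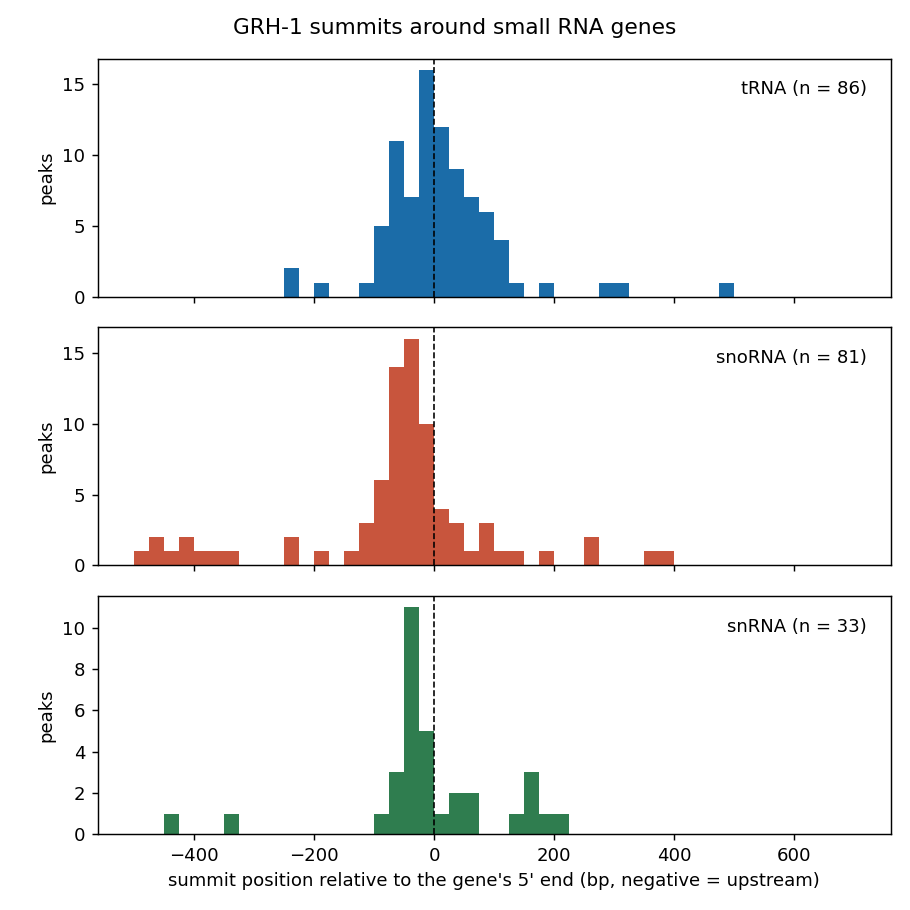
Each panel counts the peaks of 1 class (vertical axis) by the position of the summit relative to the gene's 5′ end in bp, in bins of 25 bp, with upstream positions negative. The tRNA summits are centred near the 5′ end (median −1), and the snoRNA and snRNA summits are centred upstream (medians −41 and −27), with a further group of snoRNA summits beyond 300 bp upstream.

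Some of these peaks also lay at the promoter of a neighbouring protein-coding gene. In promoter windows, which reach from 1000 bp before a protein-coding 5′ end to 200 bp past it, lay 73 of the 200 summits (36.5%), against 54.1% of all peaks of the list and 55.7% of the 2270 others. The counts were 24 for tRNA, 35 for snoRNA and 14 for snRNA peaks. A protein-coding 5′ end was nearer than that of the small RNA gene in 13, of which 10 were snoRNA peaks.

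The 3 strongest snRNA peaks lay at spliced leader genes of the sls-2 family. The peak at sls-2.4 had a pooled signal value of 1226 and values of 673 and 543 in replicates 1 and 2. The peak at sls-2.1 (chrII:5844684-5844969) had 1218, with 719 and 485, and that at sls-2.2 (chrII:5543439-5543702) had 1018, with 602 and 393. All 3 summits lay between 18 and 34 bp upstream of the gene. The pooled and the replicate values come from separate lists and are not on a common scale.

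Over the family, 14 of 18 sls-2 genes had a summit in reach (77.8%, 54.8% to 91.0%). The 15 peaks nearest to an sls-2 gene ranged from 7.40 to 1226 in signal value, with a median of 167, the same as that of all 33 snRNA peaks, and 8 of them had their summit in the 100 bp upstream. None of the 12 sls-1 genes had a summit in reach, and a count of 0 in 12 allows a share of up to 25.0%. The sls-1 genes lie in near-identical repeats. In the sequence directly upstream of the median sls-1 gene, 0% of the 50-base stretches occur once in the genome. For the median sls-2 gene it is 100%. The part of this repeated sequence in the absence of sls-1 peaks from the list was not tested.

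After these 3 peaks the next strongest lay at other snRNA genes and at another sls-2 gene. The peak at C52E4.8 (chrV:11979947-11980229) had a signal value of 868, with 450 and 402 in the replicates, and its summit, 38 bp upstream, lay also in the promoter window of snr-4, a gene for an Sm-type snRNP protein. The peak at sup-6, a U1 snRNA gene on chrII:12944763-12945131, had 749, with 402 and 307. W05B2.8 had 549, with 299 and 238, sls-2.8 had 521, with 299 and 209, and F54D8.7 had 277, with 149 and 136. The 8 strongest snRNA peaks all overlapped a thresholded peak of both replicates, and 7 of the 33 had a signal value over 500. W05B2.8 has 14 identical copies in the genome annotation, itself included, and F54D8.7 has 3, and the part of these copies in the values was not tested.

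The snRNA genes were grouped into families by the first 10 bases of the RNA, and over all snRNA genes the share with a summit was 24.0% (31 of 129). The families are small and no interval was computed for them, so the counts are a description. The sls-2 genes that begin GGTTTTAACC had a summit at 12 of 14 genes. The family of sup-6, AAACTTACCT, had one at 3 of 11 genes, and the family of W05B2.8 and F54D8.7, GTTCTTCCGA, at 5 of 18. The family of C52E4.8, AGCTTTGCGC, had one at 2 of 5 genes, and a family that begins AACTCTGGTT had one at 1 of 8. The largest family, ATCGCTTCTT, had none at 20 genes, and a count of 0 in 20 allows a share of up to 15.0%. For its median member 98.7% of the upstream 50-base stretches occur once in the genome.

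The 2 strongest snoRNA peaks lay more than 200 bp upstream of the snoRNA gene, in the promoter window of its host gene. The peak nearest to Y24D9A.9 (chrIV:4390512-4390799) had a signal value of 1192, with 705 and 499 in the replicates, 348 bp upstream of the snoRNA gene and in the promoter window of its host rpl-7A, a ribosomal protein gene. The peak nearest to F54E7.10 (chrIII:5679027-5679258) had 795, with 428 and 380, and lay 232 bp upstream in the promoter window of its host rps-12. Of the 81 snoRNA peaks, 35 lay in a promoter window of any protein-coding gene. In that of a gene named rpl or rps lay 6 of the 81 (7.41%), against 1.98% of all peaks of the list. Among the 1264 other promoter peaks, which all lie in promoter windows, the share in an rpl or rps window was 3.4% (43). None of the 86 tRNA peaks or 33 snRNA peaks lay in one, which allows shares of up to 3.49% and 9.09%.

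Another 5 of the 8 strongest lay within 100 bp upstream of the snoRNA gene. Y53F4B.47 (chrII:15025861-15026085) had a signal value of 695, with 368 and 324 in the replicates, and its summit was 77 bp upstream. F59C6.15 had 693, with 329 and 354, at 71 bp upstream. Y37E3.20 had 455, with 273 and 187, and lay also in the promoter window of its host pcyt-2.1. F25H2.15 had 415, with 258 and 159, and ZK994.7 (chrV:8500436-8500611) had 396, with 218 and 177. These 5 peaks were each found in both replicates. The remaining one of the 8 strongest, near W06H8.17 (chrV:6227651-6227829), had 435, with 259 and 177, at 200 bp upstream.

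SnoRNA genes with and without a host gene had a summit at similar shares. One was in reach of 34 of 130 snoRNA genes with no host, 36 of 183 inside a gene of the same strand and 10 of 33 inside a gene of the opposite strand. The corresponding shares were 26.2% (19.4% to 34.3%), 19.7% (14.6% to 26%) and 30.3% (17.4% to 47.3%), with intervals that overlap. By chromosome, 23 of 55 snoRNA genes on V had a summit (41.8%, 29.7% to 55.0%), and 2 of 33 on X (6.06%, 1.68% to 19.6%).

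The tRNA peaks were weaker, and 7 of the 8 strongest lay on X. The peak nearest to C18A11.t2, an arginine tRNA gene (chrX:8036267-8036607), had a signal value of 693, with 394 and 289 in the replicates, and its summit was 317 bp past the 5′ end. The peak at C28G1.t1, for glutamate (chrX:8835910-8836021), had 387, with 224 and 162, at 112 bp upstream. C53C7.t1, for serine, had 298, with 149 and 142, and M02F4.t2, for glutamate, had 291, with 175 and 131. Their summits lay 58 and 57 bp upstream.

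The other named tRNA peaks were R11.t1 for tyrosine with 254, F41D9.t3 for asparagine with 239, Y104H12A.t1 for glutamate with 217 and F15G9.t1 for alanine with 211. In the same order their values were 131, 150, 105 and 129 in replicate 1 and 117, 102, 105 and 92.7 in replicate 2. X held 45 of the 86 tRNA peaks (52.3%) and 45.1% of the tRNA genes. A summit was in reach of 54 of 276 tRNA genes on X (19.6%, 15.3% to 24.6%).

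By the amino acid carried, a summit was in reach of 14 of 55 glycine tRNA genes (25.5%, 15.8% to 38.3%) and 11 of 42 for proline (26.2%, 15.3% to 41.1%). For glutamate it was 10 of 41 (24.4%, 13.8% to 39.3%), for lysine 9 of 46 (19.6%, 10.7% to 33.2%) and for asparagine 6 of 20 (30.0%, 14.5% to 51.9%). Each of these intervals holds the 16.7% of all tRNA genes. Of the rest, phenylalanine had 4 of 14 (28.6%), valine 7 of 31 (22.6%), threonine 3 of 34 (8.82%), and aspartate and glutamine 2 of 27 each (7.41%). None was in reach of the 20 methionine tRNA genes, for which a count of 0 allows a share of up to 15.0%, or of the 12 tryptophan tRNA genes, up to 25.0%. The 1 selenocysteine tRNA gene, K11H12.t1, had a peak with a signal value of 197, with 69.2 and 128 in the replicates, 46 bp upstream. In vertebrates this gene is transcribed from an upstream promoter like that of some snRNA genes. Genes with an identical copy elsewhere had a summit in 87 of 469 cases (18.6%, 15.3% to 22.3%) and genes without a copy in 15 of 143 (10.5%, 6.46% to 16.6%).

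The question whether these peaks were as strong as the rest was asked of the pooled signal value. The median was 104 for tRNA peaks (quartiles 81.9 and 125, range 6.58 to 693), 139 for snoRNA peaks (101 and 233, 9.74 to 1192) and 167 for snRNA peaks (100 and 225, 7.40 to 1226). For the 2270 other peaks it was 128 (90.1 and 228, 2.1 to 2830). The same order held in the replicates' own ranked lists, with medians of 57.6, 88.3 and 96.1 for tRNA, snoRNA and snRNA peaks in replicate 1 and 48.2, 63.5 and 74.2 in replicate 2.

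The 617 peaks of highest signal value made up 25.0% of all peaks, and they held 6 tRNA peaks (6.98%), 23 snoRNA peaks (28.4%) and 8 snRNA peaks (24.2%), against 25.6% of the other peaks. The tRNA share was 18.6 percentage points lower than that of the other peaks, with a 95% Newcombe interval of the difference (tRNA minus other) from −22.7 to −11.0. For snoRNA and snRNA peaks the intervals were −6.01 to 13.6 and −12.9 to 15.6, so the difference was within counting error. For all 200 together it was −7.05 (−12.2 to −0.841), and this interval reached past 0 in the conservative pooled list, at −6.11 (−11.5 to 0.410), and in the list of replicate 2 alone, at −5.94 (−12.7 to 2.81).

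**Figure D3:**
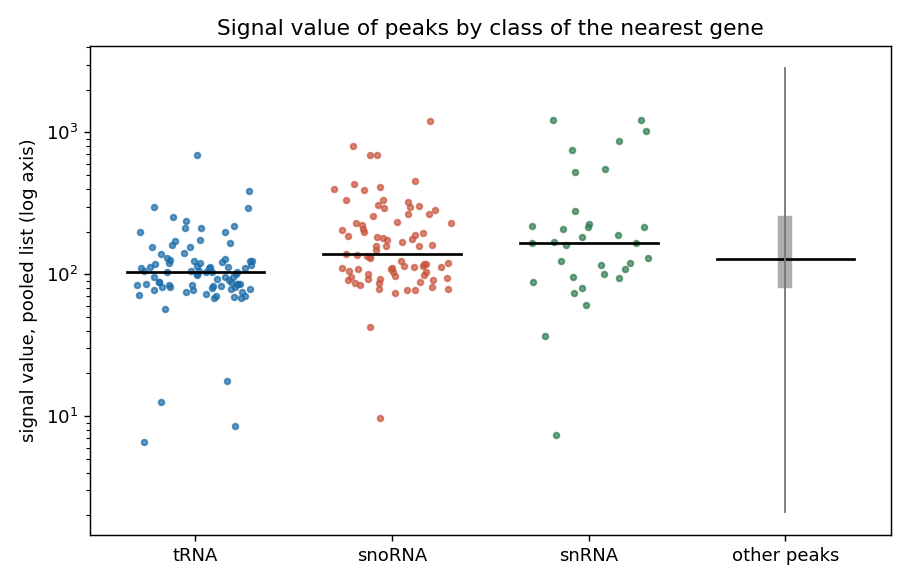
Each point is a peak near a tRNA, snoRNA or snRNA gene, at its pooled signal value on a log axis, and the black line is the median; for the 2270 other peaks the thick bar spans the quartiles and the thin line the range. The tRNA peaks lie lowest (median 104), and 7 snRNA peaks lie above 500.

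Replication was asked by counting the peaks that overlapped a thresholded peak of each replicate by at least 1 bp. Among all peaks 50.2% did so in both replicates. Of the 200 peaks 91 did (45.5%), against 50.6% of the others, a difference of −5.12 percentage points (−12.2 to 2.1). Overlap also counts a weak peak that touches a stronger neighbour, such as the weaker peak at sls-2.14 with a signal value of 7.40. With summits within 100 bp counted as shared, it was 87 of the 200 and 1104 of the 2270 others, a difference of −5.13 (−12.1 to 2.09). By class, the counts by overlap were 27 of 86 tRNA peaks (31.4%), 43 of 81 snoRNA peaks (53.1%) and 21 of 33 snRNA peaks (63.6%). The tRNA share differed from that of the other peaks by −19.2 points (−28.3 to −8.60), and for snRNA peaks the interval was −4.12 to 27.3. The tRNA peaks were also the weakest of the classes, so strength and replication cannot be told apart here.

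Across peaks with a value in both ranked lists, the Spearman correlation of the replicates' signal values was 0.540 for 80 tRNA peaks, 0.833 for 74 snoRNA peaks and 0.915 for 29 snRNA peaks. It was 0.826 for 2089 other peaks. These are descriptions over peaks that share 2 libraries. The sequence around tRNA summits was also more repetitive: all 50-base stretches of the window of 201 bp occurred once in the genome for 33.7% of tRNA peaks, 90.1% of snoRNA peaks and 51.5% of snRNA peaks, against 92.5% of the others. The part of repeated sequence in the signal of tRNA peaks was not tested.

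The next question was whether the peaks carried Grainyhead sites. The palindrome AACCGGTT lay within 100 bp of 3.81% of all summits of the list, and of 1 of the 200 (0.500%), against 4.10% of the others. The difference was −3.60 percentage points (−4.58 to −1.2). That 1 peak lay 455 bp upstream of the snoRNA gene R11A5.8, near the limit of the rule, and had a signal value of 174, with 100 and 61.0 in the replicates. The related sites AACTGGTT or AACCAGTT, present at 4.74% of all summits, lay at 3 of the 200 (difference −3.52, −4.91 to −0.587), and the core ACCGGT, at 7.09% of all summits, lay at 5 (−4.99, −6.83 to −1.62). Any of these lay at 8 of the 200 and at 281 of the 2270 others.

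Set against the 1264 other peaks in promoter windows in place of all others, a comparison chosen after seeing the data, the difference for the palindrome was −2.59 (−3.76 to −0.165). For the related sites and the core the intervals then reached past 0, from −4.29 to 0.287 and from −5.12 to 0.297. Sites were searched on both strands, and ACCGGT is contained in AACCGGTT. That a site is absent says only that these letters are not in the window.

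Of the other sites that are not part of a tRNA promoter, AGACGCAG and CACGTG were less frequent than at the other peaks. AGACGCAG, found at 12.1% of all summits, lay at 8 of the 200 (4.0%), a difference of −8.82 points (−11.3 to −4.90), and at none of the 33 snRNA peaks, where a count of 0 allows a share of up to 9.09%. CACGTG, the E-box of basic helix-loop-helix factors, found at 11.1% of all summits, lay at 4 of the 200 (2.00%), a difference of −9.89 (−11.7 to −6.61). GAGAGA, found at 35.2% of all summits, lay at 63 (31.5%), and the interval of the difference ran from −10.4 to 2.96. The share of G and C differed too, with a median of 48.3% in the window of 201 bp against 42.3% at the other peaks, and its part in the frequency of these sites was not tested.

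**Figure D4:**
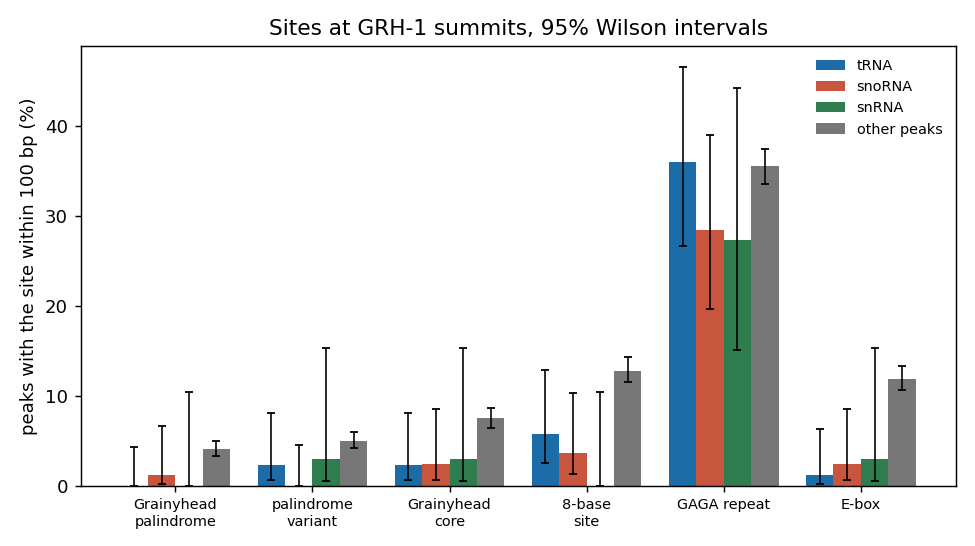
Bars give the percentage of peaks with a site within 100 bp of the summit, by class and for the 2270 other peaks, with 95% Wilson intervals; the palindrome is AACCGGTT, the 8-base site AGACGCAG and the E-box CACGTG. Bars of the 3 classes are below those of the other peaks for the first 4 sites and the last. The intervals of every class overlap those of the other peaks for the palindrome, its variant, the core and GAGAGA. For the 8-base site the tRNA interval overlaps that of the other peaks, and for the E-box the snRNA interval does.

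The upstream element, CGNAAC and TGTC with 8 bases between, lay within 100 bp of 1.82% of all summits of the list. Among the 200 peaks it lay at 33 (16.5%), of which 22 were snoRNA peaks (27.2%) and 11 snRNA peaks (33.3%), and at none of the 86 tRNA peaks, which allows up to 3.49%. Among the 2270 other peaks it lay at 12 (0.529%). Since the pattern was read from these peaks, the shares are a description and not a test. Its letters and its place resemble what is described for the proximal sequence element of worm snRNA genes, but no factor bound to it was measured here.

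The element lay in a narrow range of distances before the genes that have it. Within 110 bp upstream, on the gene's strand, it was found at 35 of 346 snoRNA genes, 37 of 129 snRNA genes, 1 of 612 tRNA genes and 5 of 19973 protein-coding genes. Its first base lay 88 to 57 bp before the 5′ end of snoRNA genes (−88 to −57, median −62) and 74 to 58 bp before that of snRNA genes (−74 to −58, median −62). The 1 tRNA gene was F42A10.t1, with a peak of signal value 68.5.

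Genes with and without the element are counted here as a description, since the pattern was read from the sequences under these peaks, so that its frequency at genes and places with a peak is set by that choice and supports nothing. Of the genes with the element 23 of 35 snoRNA genes (65.7%) and 16 of 37 snRNA genes (43.2%) had a summit in reach. Of those without it 57 of 311 snoRNA genes (18.3%) and 15 of 92 snRNA genes (16.3%) had one. With up to 1 mismatch they were 24 of 40 snoRNA genes (60.0%) and 21 of 57 snRNA genes (36.8%). Of 1403 places in the genome that hold it and are not upstream of these genes, 12 lay within 100 bp of a summit (0.855%), against 35 of 71 upstream of them (49.3%).

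The median summit lay on the gene's side of the element. From the middle of the element to the summit the median distance was 23 bp for 23 snoRNA peaks (−6 to 116 bp) and 32 bp for 17 snRNA peaks (−29 to 266 bp). The median signal value was 284 for snoRNA peaks whose gene has the element and 114 for the 58 without. For snRNA peaks it was 167 with and 168 without, and the strongest of all, at sls-2.4, sls-2.1 and sls-2.2, are among those without. The 12 other peaks with the element had a median of 87.8.

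**Figure D5:**
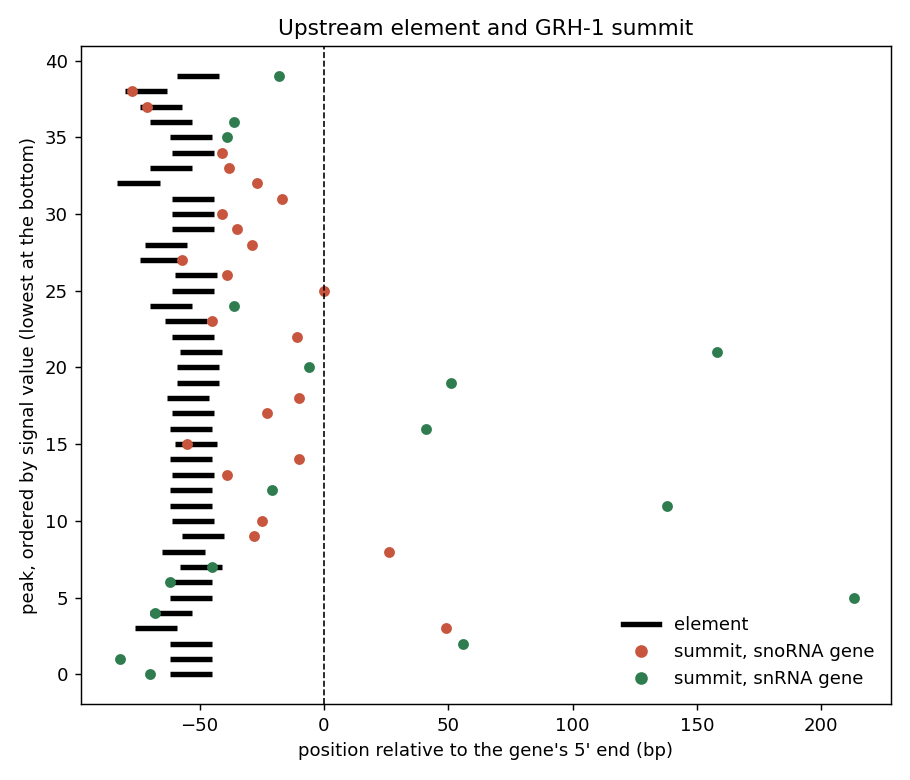
Each line across is 1 snoRNA or snRNA peak whose nearest gene has the upstream element, ordered by signal value from the lowest at the bottom; black bars are the element and points the summit, in bp from the gene's 5′ end. The elements start between −83 and −57 bp. Most snoRNA summits lie between the element and the 5′ end, while most snRNA summits lie on or before the element, inside the gene or past it.

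The internal promoter was found in tRNA genes with and without a peak. The B box was found in 100 of 102 tRNA genes with a summit (98%) and in 487 of 510 without (95.5%), at a median position of 53 and 52 bases from the 5′ end. The pattern used for the A box was found in 25.0% of tRNA genes (31.4% of those with a summit and 23.7% of those without). A tRNA gene without these letters may still have an A box, so shares of this pattern describe the letters only. Within 100 bp of the summit, the B box lay at 8.99% of all peaks of the list and at 77 of the 200, of which 58 were tRNA peaks (67.4%), 17 snoRNA peaks (21.0%) and 2 snRNA peaks (6.06%), against 6.39% of the other peaks. The A box pattern lay at 15.3% of all peaks and at 66 of the 200, of which 33 were tRNA peaks, 26 snoRNA peaks (32.1%) and 7 snRNA peaks, against 13.7% of the others. At tRNA peaks the window can hold the tRNA gene itself, and these shares are a description with no test.

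Some genes for the proteins that make or bind these RNAs had peaks of their own. A list of 23 genes was chosen with results of these data known. It held RNA polymerase III subunits and factors, the snRNA activating complex, snoRNP proteins, tRNA ligase and ncl-1, and 21 were matched by symbol. A summit lay in the promoter window of 6 of the 21 (28.6%), against 8.16% of all protein-coding genes. Because of that choice these shares are a description and not a test. Of the 6, nol-58, fib-1, nol-56 and nola-3 encode proteins of snoRNPs, and their strongest summits had signal values of 271, 253, 200 and 176. The others were mafr-1, a repressor of RNA polymerase III, with 97.8 and tftc-1, a subunit of TFIIIC, with 94.9. None of the listed subunits of the snRNA activating complex, such as snpc-4, had one.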

How the data were processed

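ChIP-seq peak lists of 2 biological replicates and of their pool were used, on build ce11 per the labels. The deposited signal value is the authors' score for each peak, and no source used here states its scale. The deposited ranked lists give, as −log10, an irreproducible discovery rate (IDR), which was at least 2 for the authors' thresholded peaks. No aligner or caller is named in the sources used here. The pooled list was called on the same libraries as the replicates' lists. Thresholded lists held 1787 peaks (replicate 1), 1487 (replicate 2), 2470 (pool) and 2389 (conservative pool).

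Genes came from Ensembl release 115 and sequences and products from RefSeq, both WBcel235; 1082 of 1087 genes of the 3 classes had a RefSeq product. No peak extended past a chromosome end. A replicate's signal value is the highest in its ranked list with a summit within 100 bp. Sites were searched in windows of 201 bp. Shares carry 95% Wilson intervals and differences 95% Newcombe intervals. Python 3.11.15, numpy 2.4.6, pandas 2.3.3 and matplotlib 3.10.9 were used, and the steps were tested on simulated data. Named genes are, per class, the 8 peaks with the highest signal value and every peak with AACCGGTT. Sequences are those of the strongest peaks of each class off chromosome I. W05B2.8, sls-2.8, F54D8.7, ZK994.7, F01D5.12, T26A8.6 and K11H12.t1 were added after their values were seen. The set, lists and sites were chosen with earlier results of these data known. Alternatives changed the list, the distance, the summits kept and the window.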

Additional observations from a re-analysis of the deposited data

How the results depend on the processing

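Of 125 recomputed values, 97 kept their direction and their side of the threshold, counts and shares staying within 1.5 times, and none changed direction. With the list of a single replicate, 108 or 145 peaks met the rule, and 7.03% or 11.3% of tRNA, 15.0% or 17.9% of snoRNA and 15.5% or 20.9% of snRNA genes had a summit. In the 1235 strongest peaks, 86 met it, with 5.07% of tRNA and 13.6% of snoRNA genes, against 3.54% of other genes. With the summit inside the gene, 43 did, with 4.41% of tRNA, 2.89% of snoRNA and 4.65% of snRNA genes, against 2.09% of other genes. These settings use fewer peaks or a shorter reach by construction. Differences from the other peaks, in percentage points, follow. The share among the strongest 25.0% of peaks in each list was −6.11 in the conservative list, −5.94 to −8.40 with 1 replicate, −4.31 in the 1235 strongest and −4.05 within 1000 bp, and the interval of all but −8.40 reached 0. The share in both replicates was −15.6 inside genes, where the interval left out 0. Site differences whose interval reached 0 were, inside genes, −3.87 for AACCGGTT, −2.45 for AACTGGTT or AACCAGTT, −4.84 for ACCGGT and −8.92 for CACGTG. Within 1000 bp they were −2.83 for AACTGGTT or AACCAGTT and −3.50 for ACCGGT. For AACTGGTT or AACCAGTT they were also −4.55 in the strongest peaks, −3.18 within 100 bp of the gene and −2.69 against other promoter peaks, and for ACCGGT −2.96 in windows of 50 bp to either side and −3.12 against promoter peaks. For GAGAGA the windows of 50 bp gave −7.00, with an interval that left out 0. Causes were not tested. Leaving out a replicate gave −4.37 to −5.51 for AACCGGTT, −4.83 to −4.95 for AACTGGTT or AACCAGTT, −6.60 to −8.14 for ACCGGT, −10.3 to −12.6 for AGACGCAG, −0.962 to −7.98 for GAGAGA and −10.5 to −10.7 for CACGTG. The replicates' overlap has no value with 1 replicate. The comparisons with promoter peaks and within 100 bp were chosen after seeing the data. No paired analysis was possible because there was 1 group. Depth is unknown, so genes without a summit may have had GRH-1 below the limit of detection.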

Other observations

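In the pooled ranked list, 49 peaks passed the limit on the IDR but were not in the thresholded list, and no source used here says why. Of these, 2 lay within 500 bp of a gene of the 3 classes. One lay 281 bp from the tRNA gene Y95D11A.t1 and had a signal value of 194. The other lay 307 bp from sls-1.4 (chrV:17129338-17129681) and had a signal value of 102.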
